A study of Homo sapiens with 8 samples.

Results

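Footprints of 40 protein-folding genes, 21 of the cytosol (with the mitochondrial pair HSPD1 and HSPE1) and 19 of the endoplasmic reticulum (ER), were followed across ribosome profiling libraries of BJ skin fibroblasts. The genes were chosen by name, as known chaperones, co-chaperones and ER folding factors, at a time when earlier results of these data were already known. They were looked up in the table of 11546 genes without 4-hydroxytamoxifen (4-OHT) and in that of 11079 genes with it. Of the 40 genes, 36 were listed in both tables, 18 of them cytosolic and 18 of the ER. HSPD1, CCT3 and P4HB were not listed in either table. HSPE1 was listed only without 4-OHT, at 0.240 to 1.30 RPKM, on about 1 to 7 reads a library. On the genome HSPE1 overlaps HSPE1-MOB4 and CCT3 overlaps TSACC. Why genes are missing or near 0 was not tested, so this is not read as a lack of translation.

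The cells were the BJ line, a human skin fibroblast line, labelled BJ-HRAS, as WT clones 15 and 54 and as SNORA13 KO clones 66 and 69. Each of the 4 clones gave 1 library without 4-OHT and 1 after 7 days in 100 nM 4-OHT, so that 8 libraries fell into 4 groups of 2 clones. The labels do not state what 4-OHT does in this line. SNORA13 was not listed under its symbol, so the knockout was not checked here. Genotype and clone cannot be told apart, and neither can 4-OHT and the table that holds its libraries.

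The CCT ring, also called TRiC, is a chamber of different subunits that folds actin, tubulin and other proteins of the cytosol. HSP70 proteins bind exposed hydrophobic stretches of unfolded chains, J-domain proteins hand them their clients, and HSP90 completes the folding of many kinases and receptors. In the ER, the HSP70 protein BiP (HSPA5) and the HSP90 protein GRP94 (HSP90B1) act beside lectin chaperones that read sugar chains and enzymes that form disulfide bonds. Many ER folding genes are targets of the unfolded protein response, in which ATF6 and XBP1 act at ER stress response elements, while heat shock factor drives many cytosolic ones.

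Library depth, recovered from the steps between low values, was 188826 to 1713523 reads, lowest in KO clone 66 with 4-OHT, where 3169 genes were at 0. Values behave as RPKM, divided by the whole gene span with introns and scaled to the library total. Whether reads in introns were counted is not given in the sources used here. The values reflect mRNA amount and translation together. Levels were therefore compared between libraries, not between genes. All 9 fibroblast markers were listed, and their summed share of footprints was 6.57% to 8.66% without 4-OHT and 2.47% to 2.93% with it. The part of this shift in the results below was not tested. In bulk libraries of clonal cells, fewer cells that express these genes and less of their RNA per cell cannot be told apart. Keratinocyte, leukocyte, endothelial and epithelial markers took at most 0.0388% per class in any library, and KRT5, KRT14, TP63, CD3E, KDR and EPCAM were not listed.

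The summed footprints of the cytosolic genes were higher with 4-OHT in all 4 clones, while those of the ER genes overlapped between treated and untreated libraries when scaled to the library total. The 18 cytosolic genes summed to 5915.0 and 5688.0 RPM (footprints scaled to the library total, with no division by length) in WT clones 15 and 54 without 4-OHT and to 8917.4 and 8448.3 with it. In KO clones 66 and 69 the sums were 6187.2 and 6246.0 without and 8688.5 and 8771.6 with 4-OHT. The groups did not overlap. Of these cytosolic sums the 6 listed CCT ring subunits took 1367.8 to 1646.5 RPM without and 3109.0 to 3571.0 with 4-OHT, so the rise was not spread evenly. The 18 ER genes summed to 11258.2, 10608.9, 11518.0 and 10872.7 in clones 15, 54, 66 and 69 without 4-OHT, and to 12036.3, 9969.3, 11219.3 and 10580.5 with it, and these ranges overlapped. The ratio of ER to cytosolic footprints was 1.74 to 1.90 without 4-OHT and 1.18 to 1.35 with it, lower in each of the 4 clones. Such sums weigh genes by their reads. In WT clone 15 without 4-OHT, CALR, CANX, HSP90B1 and HSPA5 had about 4480, 2612, 1947 and 1735 reads. SDF2L1 had about 18 and MANF 102, so both hardly count in the ER sum. The reading of the ER sums depends on the scaling. After median-ratio scaling, chosen here after seeing the data, they were 11334.3 to 12970.7 without 4-OHT and 9022.0 to 10484.5 with it, so that all treated libraries lay below all untreated ones. The cytosolic sums then ran from 6076.9 to 6967.6 without and from 7388.1 to 7767.8 with 4-OHT, still without overlap, and the ratio of ER to cytosolic sums within a library does not depend on the scaling.

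**Figure D1:**
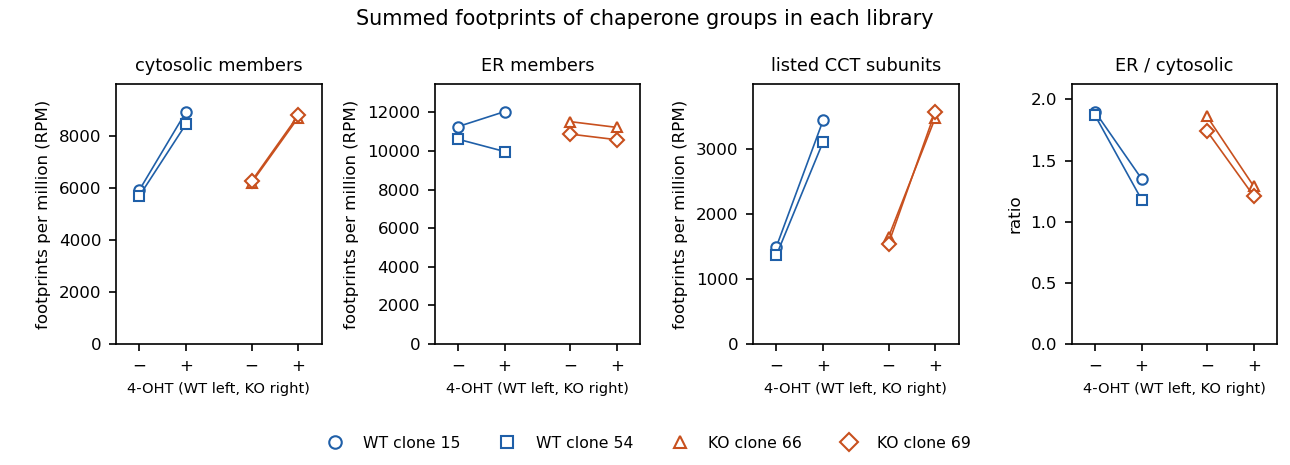
RPM summed over the 18 cytosolic genes, the 18 ER genes and the 6 listed CCT ring subunits among the members, and the ratio of ER to cytosolic sums, in each library. Lines join the library of a clone without (−) and with (+) 4-OHT. The cytosolic and CCT sums with 4-OHT lie above all those without, the ER sums overlap at this scaling to the library total, and the ratio lies between 1.18 and 1.35 with 4-OHT against 1.74 to 1.90 without.

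In WT clones 11 of the 36 tested genes rose and 2 fell with 4-OHT (limma-trend on log2(RPKM + 1), Benjamini-Hochberg adjusted p under 0.05). Over all 8699 tested genes 13.6% rose and 8.14% fell. In KO clones 9 of the 36 rose and 3 fell, beside 17.3% and 10.7% of all genes. Of the cytosolic genes 8 rose and 1 fell in WT clones and 6 rose and 2 fell in KO clones. Of the ER genes 3 rose and 1 fell in each genotype. The median log2 fold change of the cytosolic genes was 0.33 in WT and 0.51 in KO clones, that of the ER genes 0.02 and 0.05, and that of all tested genes 0.06 and 0.05. Within the cytosolic genes the median was 1.05 and 1.00 for the 6 CCT subunits and 0.84 and 0.60 for HSP90AA1, HSP90AB1 and STIP1. For the 8 genes of the HSP70 system it was -0.05 and 0.07. All 4 libraries with 4-OHT lay above all 4 without for 12 of the 36 genes, which held for 24.6% of all tested genes, and below for 3, which held for 16.0%. These p-values rest on the spread within groups of 2 clones with 1 library each, pooled over the 4 groups. Differences between clones, libraries and read counts cannot be told apart in that spread. Under median-ratio scaling of the libraries the calls among the 36 were 7 higher and 5 lower in WT clones and 6 higher and 4 lower in KO clones. Over all genes that scaling turned 1182 higher and 708 lower calls into 816 and 975 in WT clones, and 1501 and 932 into 998 and 1340 in KO clones.

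**Figure D2:**
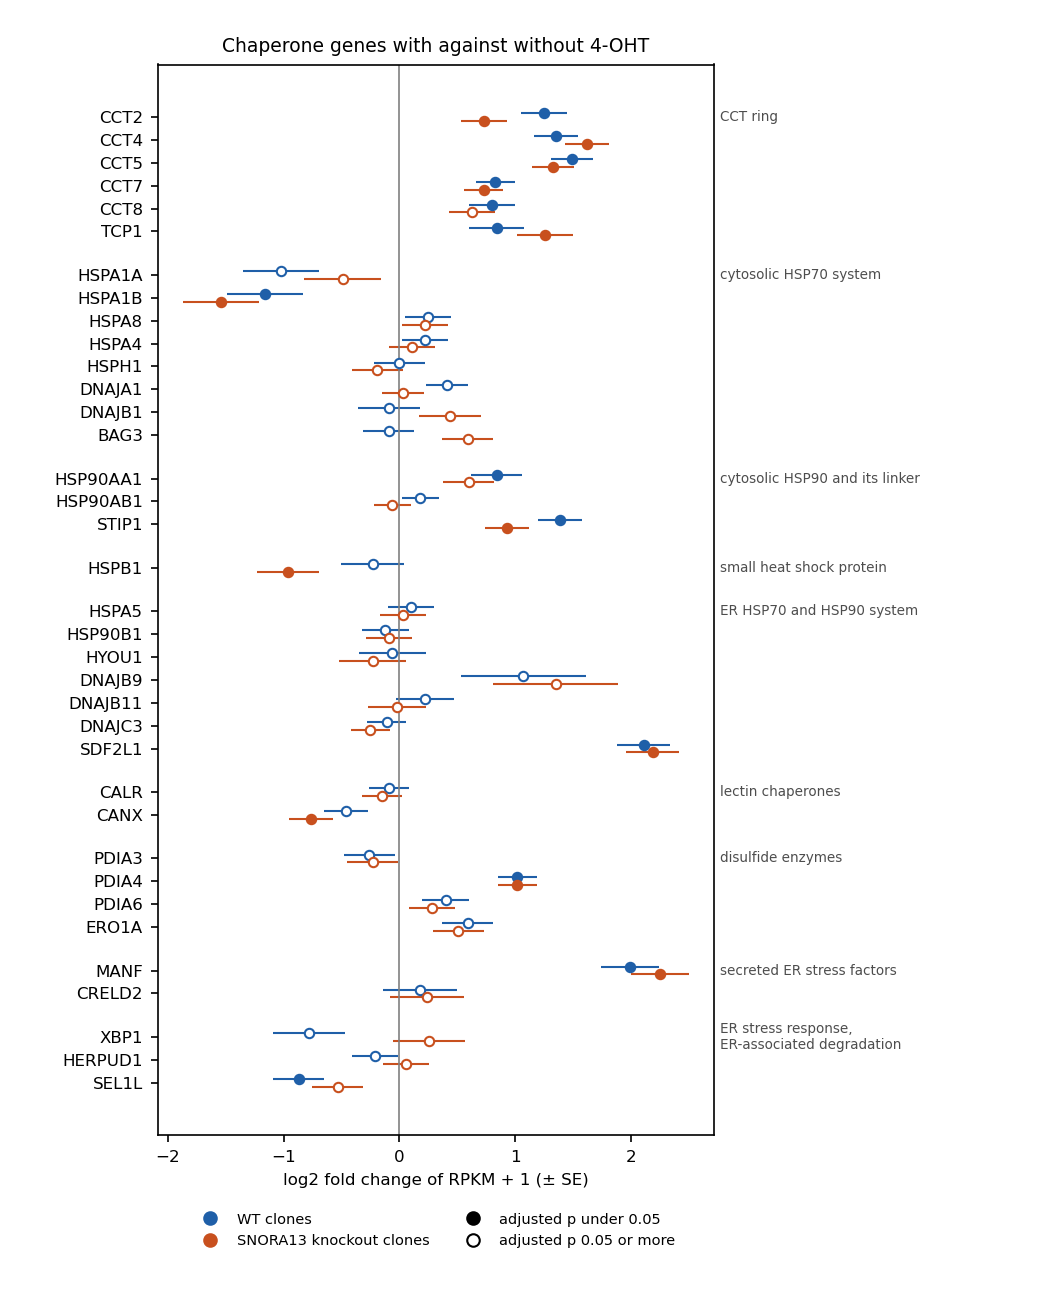
Log2 fold change of RPKM + 1 with against without 4-OHT for the 36 tested genes, grouped by role, in WT clones (blue) and SNORA13 knockout clones (orange). Points are estimates of limma-trend and bars their SE, and filled points have an adjusted p under 0.05. The 6 CCT subunits, STIP1, SDF2L1, MANF and PDIA4 lie to the right of 0 in both genotypes, while HSPA5, HSP90B1 and CALR lie near 0.

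The 6 listed subunits of the CCT ring among the 40 genes, CCT2, CCT4, CCT5, CCT7, CCT8 and TCP1 (the alpha subunit), all rose with 4-OHT in WT clones, and 5 of the 6 rose in KO clones. Together they took 1498.9 and 1367.8 RPM in WT clones 15 and 54 without 4-OHT and 3439.6 and 3109.0 with it. The KO clones 66 and 69 gave 1646.5 and 1544.2 without and 3475.5 and 3571.0 with 4-OHT. The groups did not overlap.

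CCT5 (epsilon subunit, chr5:10249921-10266412 in the RefSeq annotation of GRCh38.p14) had 15.7 and 16.6 RPKM in WT clones 15 and 54 without 4-OHT and 44.7 and 50.1 with it, and 20.9 and 19.0 against 46.5 and 57.6 in KO clones 66 and 69. Its log2 fold change was 1.49 ± 0.18 (SE, n = 2 clones a group, adjusted p = 0.00183) in WT clones and 1.33 ± 0.18 (adjusted p = 0.00236) in KO clones. Every library with 4-OHT was above every one without. CCT4 (delta subunit, chr2:61868085-61888671) went from 12.9 and 10.8 to 35.5 and 28.1 RPKM in WT clones and from 13.1 and 12.5 to 43.5 and 39.7 in KO clones, in the same clone order. This was a log2 fold change of 1.35 ± 0.19 (adjusted p = 0.00315) and 1.62 ± 0.19 (adjusted p = 0.00131), again with no overlap.

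CCT2 (beta subunit) stood at 16.3 and 13.3 RPKM in untreated WT clones and 37.1 and 35.8 in treated ones, and at 18.8 and 16.5 against 26.3 and 33.9 in KO clones. The log2 fold change was 1.25 ± 0.20 in WT clones (adjusted p = 0.00481) and 0.73 ± 0.20 in KO clones (adjusted p = 0.0319), the latter no longer called with the clone as a block (adjusted p = 0.0619). KO clone 66 with 4-OHT, the shallowest library, was the lowest of the 4 treated ones. TCP1 was at 13.7 and 13.1 RPKM in WT clones and rose to 27.7 and 22.2, and from 14.8 and 12.6 to 42.0 and 27.8 in KO clones. Its log2 fold changes were 0.84 ± 0.24 (adjusted p = 0.0426) and 1.26 ± 0.24 (adjusted p = 0.00813). Here KO clone 66 was the highest treated library, so the ring's subunits did not share 1 order of libraries.

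CCT7 (eta subunit) had 17.9 and 16.3 RPKM in WT and 17.1 and 16.6 in KO clones without 4-OHT, and 33.4, 29.0, 29.8 and 27.5 with it in clones 15, 54, 66 and 69. Its log2 fold change was 0.83 ± 0.17 (adjusted p = 0.0130) in WT and 0.73 ± 0.17 (adjusted p = 0.0174) in KO clones. CCT8 (theta subunit) had 12.9, 11.9, 14.1 and 14.8 RPKM without and 25.5, 19.5, 21.0 and 25.1 with 4-OHT in the same order. It rose by a log2 fold change of 0.80 ± 0.20 in WT clones (adjusted p = 0.0273), and its value in KO clones was 0.63 ± 0.20 (adjusted p = 0.0502). For both genes all treated libraries were above all untreated ones. CCT6A, the zeta subunit, which is not among the 40 genes, rose too, by 0.97 ± 0.25 (adjusted p = 0.0308) in WT and 1.04 ± 0.25 (adjusted p = 0.0202) in KO clones. Of the 6 subunits, CCT2, CCT4 and CCT5 in WT clones and CCT4, CCT5 and TCP1 in KO clones stayed called under all 16 alternatives. Median-ratio scaling left 3 of the 6 called in each genotype. It ended the calls of CCT7 (0.57, adjusted p = 0.0534), CCT8 (0.54, adjusted p = 0.0934) and TCP1 (0.58, adjusted p = 0.124) in WT clones and of CCT2 (0.40, adjusted p = 0.194) and CCT7 (0.41, adjusted p = 0.117) in KO clones.

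The ratio of mean RPKM with to without 4-OHT was 2.93 for CCT5, 2.68 for CCT4, 2.46 for CCT2, 1.86 for TCP1, 1.82 for CCT7 and 1.81 for CCT8 in WT clones. In KO clones it was 2.61, 3.25, 1.71, 2.55, 1.70 and 1.59 in the same order. Per clone the ratios ran from 1.40 for CCT2 in clone 66 to 3.33 for CCT4 in clone 66. CCT4 overlaps COMMD1 and TCP1 overlaps ACAT2 on the genome, and reads of overlapping genes may not have been told apart. TCP1 also holds the snoRNA genes SNORA20 and SNORA29 inside its span. The same limit holds for other genes of the set, of which 9 overlap another protein-coding gene and 3 hold a snoRNA gene. Among them are CANX with CBY3, DNAJB1 with TECR, PDIA3 with ELL3 and PDIA6 with ATP6V1C2. HSPA8 holds SNORD14C, SNORD14D and SNORD14E.

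**Figure D3:**
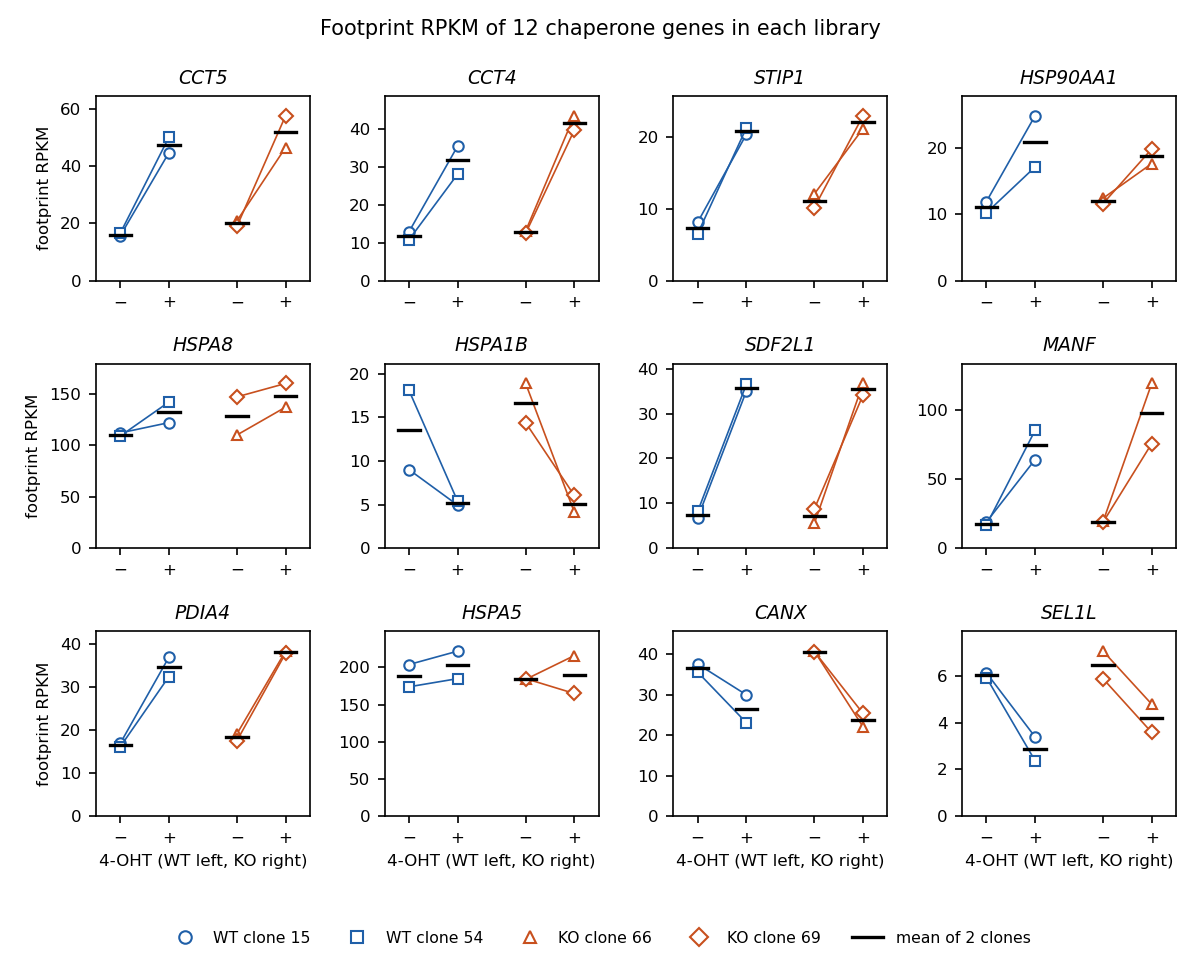
Footprint RPKM of 12 chaperone genes in each of the 8 libraries, without (−) and with (+) 4-OHT, WT clones in blue and KO clones in orange. Lines join the libraries of 1 clone and black bars are the mean of 2 clones. CCT5, CCT4, STIP1, SDF2L1, MANF and PDIA4 lie higher with 4-OHT in every clone, HSPA1B, CANX and SEL1L lie lower in every clone, and HSPA5 and HSPA8 overlap.

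In the HSP90 arm of the cytosol, STIP1 rose in both genotypes, HSP90AA1 in WT clones, and HSP90AB1 had no call. STIP1, which links HSP70 to HSP90, had 8.16 and 6.56 RPKM in untreated WT clones and 20.4 and 21.3 in treated ones, and 12.1 and 10.2 against 21.2 and 23.0 in KO clones. Its log2 fold change was 1.39 ± 0.19 (adjusted p = 0.00256) in WT and 0.93 ± 0.19 (adjusted p = 0.0101) in KO clones, and the groups did not overlap. HSP90AA1, the stress-inducible HSP90, had 11.9 and 10.2 RPKM in WT and 12.4 and 11.6 in KO clones without 4-OHT, and 24.8, 17.1, 17.6 and 19.8 with it in clones 15, 54, 66 and 69.

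All treated libraries again lay above the untreated ones for HSP90AA1. It rose in WT clones, by 0.84 ± 0.22 (adjusted p = 0.0320), and its log2 fold change in KO clones was 0.60 ± 0.22 (adjusted p = 0.0801). Its span overlaps that of WDR20. HSP90AB1, the constitutive HSP90, stayed within 119 to 142 RPKM without 4-OHT and 128 to 143 with it. Its log2 fold change was 0.18 (95% interval -0.19 to 0.56) in WT clones and -0.06 (-0.44 to 0.31) in KO clones, and the sign in WT clones turned to -0.09 under median-ratio scaling. That scaling also ended the calls of HSP90AA1 in WT clones (0.58, adjusted p = 0.0998) and of STIP1 in KO clones (0.61, adjusted p = 0.0582).

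In the cytosolic HSP70 system no gene rose. HSPA1B, the inducible HSP70, had 9.02 and 18.1 RPKM in untreated WT clones and 4.95 and 5.40 in treated ones, and 18.9 and 14.4 against 4.16 and 6.07 in KO clones. It fell in both genotypes, with log2 fold changes of -1.16 ± 0.33 (adjusted p = 0.0431) in WT and -1.54 ± 0.33 (adjusted p = 0.0135) in KO clones, with no overlap between treated and untreated libraries. The treated values rest on few reads, about 21, 8, 2 and 15 in clones 15, 54, 66 and 69. The call in WT clones was lost without WT clone 54 untreated (-0.70, adjusted p = 0.221), with the clone as a block (adjusted p = 0.0580) and in limma-voom on recovered reads (adjusted p = 0.0768), among 9 of 16 alternatives. In KO clones limma-voom ended the call too (-1.42, adjusted p = 0.0748).

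HSPA1A, whose coding sequence is nearly the same as that of HSPA1B, had 9.44 and 8.66 RPKM in untreated WT clones and 4.54 and 3.42 in treated ones, and 11.2 and 13.9 against 12.7 and 5.74 in KO clones. Its log2 fold changes were -1.02 ± 0.33 (adjusted p = 0.0676) and -0.49 ± 0.33 (adjusted p = 0.305). KO clone 66 with 4-OHT stood at the level of the untreated clones, while the other treated libraries were lower. That value rests on about 6 reads, and that of treated WT clone 54 on about 5, so neither fixes a level. How reads were split between HSPA1A and HSPA1B is not given in the sources used here, so the sum of both is the firmer value. That sum was 45.4 and 66.3 RPM in WT clones and 74.5 and 69.6 in KO clones without 4-OHT, and 23.3, 21.8, 40.9 and 29.1 with it, lower in every clone.

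HSPA8, the constitutive HSP70, had 112 and 109 RPKM in WT and 110 and 147 in KO clones without 4-OHT and 122, 142, 137 and 160 with it. These ranges overlapped, and the log2 fold change was 0.25 (95% interval -0.22 to 0.73) in WT and 0.22 (-0.25 to 0.69) in KO clones. The other 5 genes of this system were HSPA4 and HSPH1 (nucleotide exchange factors), DNAJA1 and DNAJB1 (J-domain proteins) and BAG3 (a co-chaperone of HSP70 in selective autophagy). Their log2 fold changes ran from -0.09 to 0.41 in WT clones and from -0.19 to 0.59 in KO clones, and none was called. BAG3 was called in KO clones without KO clone 69 with 4-OHT (0.83, adjusted p = 0.0234).

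HSPB1 (HSP27), a small heat shock protein that holds unfolded proteins without ATP, was at 450 and 470 RPKM in untreated WT clones and 310 and 493 in treated ones. In KO clones it was at 378 and 411 without and 168 and 244 with 4-OHT. It fell in KO clones, with a log2 fold change of -0.96 ± 0.27 (adjusted p = 0.0369), where both treated libraries were below all untreated ones. The WT value was -0.23 ± 0.27 (adjusted p = 0.594), with clones 15 and 54 on opposite sides of their untreated level. Without KO clone 66 with 4-OHT the value in KO clones was -0.69 (adjusted p = 0.161).

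Among the ER genes SDF2L1, MANF and PDIA4 rose in both genotypes. SDF2L1, an ER protein that acts with J-domain partners of BiP, showed the largest ratio of means of the 36 genes in WT clones. It had 6.81 and 8.23 RPKM in WT and 5.55 and 8.78 in KO clones without 4-OHT, and 35.0, 36.5, 36.7 and 34.1 with it. The log2 fold change was 2.11 ± 0.23 (adjusted p = 0.00116) in WT and 2.19 ± 0.23 (adjusted p = 9.39e-04) in KO clones. The 4 treated libraries were closely alike, and all were above the untreated ones.

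MANF, a small ER protein that is secreted on stress and binds BiP, had 19.0 and 16.9 RPKM in WT and 19.4 and 18.9 in KO clones without 4-OHT, and 64.0, 85.1, 119 and 75.6 with it. Its log2 fold change was 1.99 ± 0.25 (adjusted p = 0.00220) in WT and 2.25 ± 0.25 (adjusted p = 0.00116) in KO clones. PDIA4 (ERp72), a disulfide isomerase, had 16.9 and 16.1 RPKM in WT and 19.1 and 17.5 in KO clones without 4-OHT and 36.9, 32.4, 38.3 and 37.8 with it. The log2 fold change was 1.02 ± 0.17 in each genotype (adjusted p = 0.00514 in WT and 0.00459 in KO clones). For both genes every treated library was above every untreated one. SDF2L1, MANF and PDIA4 stayed called under all 16 alternatives in both genotypes.

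DNAJB9 (ERdj4), a J-domain protein that turns off the sensor IRE1, and ERO1A, the oxidase that recharges disulfide isomerases, were higher in every clone without a call. DNAJB9 had 4.41 and 2.29 RPKM in WT and 0.891 and 3.76 in KO clones without 4-OHT, and 10.0, 6.14, 4.21 and 10.2 with it. Its ranges overlapped over clones, since clone 66 was low in both states, and within clones the ratio with to without was 2.27 to 4.73. The ratio of 4.73, in clone 66, compares about 4 reads in each state at different depths. Clone 54 had about 9 reads without and 18 with 4-OHT. Adjusted p was 0.205 in WT and 0.103 in KO clones, and with the clone as a block it was called in both (adjusted p = 0.0233 and 0.0112). ERO1A was at 1.54 to 2.21 RPKM without and 2.53 to 3.64 with 4-OHT, with adjusted p = 0.103 and 0.130, and limma-voom called it in both genotypes (adjusted p = 0.00523 and 0.0234).

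HSPA5, HSP90B1 and CALR, central chaperones of the ER lumen, were not called. HSPA5 (BiP) had 204 and 174 RPKM in WT and 184 and 185 in KO clones without 4-OHT, and 222, 185, 216 and 165 with it. The ranges overlapped, and the log2 fold change was 0.10 (95% interval -0.37 to 0.58) in WT and 0.03 (-0.44 to 0.51) in KO clones, with a negative sign in both under median-ratio scaling (-0.17 and -0.31). HSP90B1 (GRP94) ran from 81.7 to 98.2 RPKM without and 65.6 to 92.7 with 4-OHT, and CALR (calreticulin) from 493 to 581 and from 445 to 592. For HSP90B1 the intervals were -0.59 to 0.36 and -0.56 to 0.39, and for CALR -0.49 to 0.32 and -0.56 to 0.26.

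CANX (calnexin), the membrane-bound partner of calreticulin, had 37.6 and 35.6 RPKM in WT and 40.8 and 40.7 in KO clones without 4-OHT, and 23.1, 22.1 and 25.4 in clones 54, 66 and 69 with it, while clone 15 kept 0.80 of its untreated level. It fell in KO clones, with a log2 fold change of -0.76 ± 0.19 (adjusted p = 0.0237), and its value in WT clones was -0.46 ± 0.19 (adjusted p = 0.129), with no overlap between treated and untreated libraries. SEL1L, the adaptor of the HRD1 ligase in ER-associated degradation, had 6.13 and 5.93 RPKM in WT and 7.06 and 5.88 in KO clones without 4-OHT and 3.39, 2.37, 4.79 and 3.58 with it. It fell in WT clones, with a log2 fold change of -0.87 ± 0.22 (adjusted p = 0.0310), and the value in KO clones was -0.53 ± 0.22 (adjusted p = 0.116). Under median-ratio scaling both genes were called lower in both genotypes.

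XBP1, the spliced transcription factor of the unfolded protein response, had 29.5 and 27.6 RPKM in untreated WT clones and 14.7 and 18.0 in treated ones, and 20.9 and 20.5 against 35.5 and 17.5 in KO clones. The WT clones were lower with 4-OHT, while KO clones 66 and 69 lay on opposite sides of their untreated level. Its log2 fold change was -0.78 ± 0.31 (adjusted p = 0.118) in WT and 0.26 ± 0.31 (adjusted p = 0.558) in KO clones. In WT clones it was called lower in 5 of 16 alternatives, which were limma-voom (adjusted p = 0.0109), the 4 WT libraries alone (0.0256), median-ratio scaling (0.0495) and the fits without treated KO clone 66 (0.0180) or 69 (0.0178). The remaining 7 ER genes, PDIA3 and PDIA6 (disulfide isomerases), DNAJB11 and DNAJC3 (J-domain proteins), HYOU1 (a large HSP70 relative), CRELD2 (a secreted stress protein) and HERPUD1 (an ER-associated degradation factor), had no call. Their log2 fold changes were between -0.26 and 0.40 in WT and between -0.25 and 0.28 in KO clones.

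Letters of the elements through which the unfolded protein response acts were in a larger share of the ER genes' promoters than of promoters in general. Genes and elements were both chosen from what is known of these responses, so the larger share is a description and not a test. Of the 8 ER genes with a match to ERSE, ERSE-II or the UPRE core, SDF2L1 rose and the other 7 had no call. Of all tested genes, 13.6% rose and 8.14% fell in WT clones, and 17.3% and 10.7% in KO clones. No difference of these 8 genes from those shares was tested. A window from 250 bases before to 50 after the start was searched on both strands for 39 of the 40 genes (RefSeq, GRCh38.p14). Only exact matches were counted, so an element that departs from its pattern by a base was missed. The table holds 1 start a gene, and for 9 genes (CANX, CCT5, DNAJB1, HSP90AA1, HSPA8, HSPD1, PDIA4, PDIA6 and XBP1) the upstream bases lie wholly inside the gene's span, downstream of another annotated start whose promoter was not searched. The ER stress response element ERSE (CCAAT, 9 bases, CCACG) was in 5 of 18 ER promoters, 27.8%, in 0 of 21 cytosolic ones and in 0.0806% of 27305 promoters of all genes. ERSE-II (ATTGG, 1 base, CCACG) was in 3 of 18 ER promoters, 16.7%, in 0 of 21 cytosolic ones and in 0.0623% of all. The heat shock element (GAA, 2 bases, TTC, 2 bases, GAA, or its reverse complement) was in 4 of 21 cytosolic promoters, 19.0%, in 0 of 18 ER ones and in 0.502% of all. The UPRE core TGACGTGG was found in 1 ER promoter, that of HYOU1, where it overlaps 1 of 2 ERSE-II matches, and in 0.762% of all. An ERSE holds the CCAAT box by its own letters, and that box alone was in 88.9% of the ER, 38.1% of the cytosolic and 35.6% of all promoters.

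Both ERSE-II promoters below carry the same element, one at the ER gene that rose most in WT clones and one at a gene with no call. The 250 bases upstream of the start are given 5′ to 3′ on the gene's strand, with the match in capitals.
SDF2L1 (chr22:21642052-21642301, plus strand): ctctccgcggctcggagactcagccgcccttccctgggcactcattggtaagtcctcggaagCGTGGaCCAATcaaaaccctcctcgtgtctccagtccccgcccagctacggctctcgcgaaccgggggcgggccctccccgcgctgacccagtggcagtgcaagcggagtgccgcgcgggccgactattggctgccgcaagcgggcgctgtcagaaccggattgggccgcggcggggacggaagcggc
HERPUD1 (chr16:56931892-56932141, plus strand): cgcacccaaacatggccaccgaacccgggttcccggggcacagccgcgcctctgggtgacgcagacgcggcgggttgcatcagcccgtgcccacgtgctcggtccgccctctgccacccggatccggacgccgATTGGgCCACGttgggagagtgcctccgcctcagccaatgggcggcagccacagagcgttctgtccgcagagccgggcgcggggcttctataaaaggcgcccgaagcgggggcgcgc
SDF2L1 had a ratio of mean RPKM with to without 4-OHT of 4.76 in WT and 4.95 in KO clones. HERPUD1 stood at 12.5 and 12.8 RPKM in untreated WT clones and 11.1 and 10.5 in treated ones, and at 12.4 and 11.5 against 14.8 and 10.5 in KO clones, with a log2 fold change of -0.21 ± 0.20 and 0.06 ± 0.20. HYOU1 holds ERSE-II in 2 places and had log2 fold changes of -0.06 ± 0.29 and -0.23 ± 0.29. A match describes the letters only.

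The classical ERSE lies in the promoters of HSPA5, HSP90B1 and CALR, whose footprints overlapped between treated and untreated libraries. HSPA5 carries 1 match and HSP90B1 carries 2 in the 250 bases upstream, in capitals.
HSPA5 (chr9:125241344-125241593, minus strand): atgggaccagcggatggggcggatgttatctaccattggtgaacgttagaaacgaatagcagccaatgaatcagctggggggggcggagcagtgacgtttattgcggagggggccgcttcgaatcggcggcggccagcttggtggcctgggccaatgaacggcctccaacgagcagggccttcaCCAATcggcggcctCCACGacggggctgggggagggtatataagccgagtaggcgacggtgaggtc
HSP90B1 (chr12:103930160-103930409, plus strand): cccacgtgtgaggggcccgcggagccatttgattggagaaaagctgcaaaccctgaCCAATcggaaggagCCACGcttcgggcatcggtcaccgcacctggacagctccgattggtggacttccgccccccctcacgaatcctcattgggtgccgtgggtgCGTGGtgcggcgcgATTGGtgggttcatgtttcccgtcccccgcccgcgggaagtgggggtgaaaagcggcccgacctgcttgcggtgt
The matches in CALR, CRELD2 and PDIA6 are given alone, on the gene's strand, with the outer blocks in capitals.
CALR: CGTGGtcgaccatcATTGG
CRELD2: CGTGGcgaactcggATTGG
PDIA6: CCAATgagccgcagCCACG
None of these 5 genes was called in either genotype, a count too small to set against the shares of all genes. CRELD2 had 2.49 to 5.86 RPKM without and 4.12 to 5.91 with 4-OHT, and PDIA6 15.4 to 18.6 and 17.9 to 24.5. MANF, which rose, held no ERSE or ERSE-II match in this window.

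Exact heat shock elements were in the windows of HSP90AA1, HSPA8, HSPD1 and DNAJA1. The windows of HSPA1A and HSPA1B each hold a stretch that departs from the pattern only in its last base and was not counted. Exact matches are shown in capitals for HSP90AA1, which rose in WT clones, and HSPA8, which had no call.
HSP90AA1 (chr14:102087045-102087294, minus strand): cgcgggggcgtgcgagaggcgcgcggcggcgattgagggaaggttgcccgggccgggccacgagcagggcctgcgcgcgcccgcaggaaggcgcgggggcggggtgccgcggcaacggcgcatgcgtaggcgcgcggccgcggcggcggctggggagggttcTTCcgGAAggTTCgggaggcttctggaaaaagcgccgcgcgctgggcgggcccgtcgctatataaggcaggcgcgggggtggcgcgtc
HSPA8 (chr11:123062137-123062386, minus strand): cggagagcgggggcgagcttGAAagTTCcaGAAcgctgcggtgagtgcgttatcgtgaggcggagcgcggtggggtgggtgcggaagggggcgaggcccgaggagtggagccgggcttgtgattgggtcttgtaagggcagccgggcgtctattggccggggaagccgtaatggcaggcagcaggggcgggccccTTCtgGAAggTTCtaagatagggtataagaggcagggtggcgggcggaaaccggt
DNAJA1 had 10.6 and 13.7 RPKM in untreated WT clones and 16.6 and 16.2 in treated ones, and 15.9 and 15.3 against 16.1 and 15.7 in KO clones. Both printed windows start inside the gene's span, HSP90AA1 at 52705 and HSPA8 at 326 bases from its outermost start.

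Between genotypes no gene of the set was called, and none of all tested genes was. The background was 0% of 8080 genes without 4-OHT and 0% of 7680 genes with it, in limma-trend on the 4 libraries of each table. At an unadjusted p under 0.05 there were 684 genes without and 366 with 4-OHT, and limma-voom called 59 and 47 genes, none of them in the set. The median log2 difference of KO from WT clones without 4-OHT was 0.18 for the cytosolic and 0.09 for the ER genes, against -0.01 for all genes. With 4-OHT it was 0.06 and 0.11, against -0.01.

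Without 4-OHT, the smallest p-values were those of XBP1, STIP1, HYOU1 and HSPA1A. XBP1 stood at 20.9 and 20.5 RPKM in KO clones against 29.5 and 27.6 in WT clones, a log2 difference of -0.45 (95% interval -0.84 to -0.05, adjusted p = 0.580). STIP1 had 12.1 and 10.2 against 8.16 and 6.56 RPKM, a difference of 0.54 (0.06 to 1.02, adjusted p = 0.580). HYOU1 had 23.5 and 19.8 against 15.9 and 14.7 RPKM, a difference of 0.47 (0.04 to 0.91). For HSPA1A the difference was 0.42 (-0.04 to 0.88). Both KO clones were below both WT clones for XBP1 and above them for STIP1, HYOU1 and HSPA1A.

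With 4-OHT the smallest p-values belonged to HSPB1, HSPA1A, CCT4 and BAG3, each at adjusted p = 0.821. HSPB1 had 168 and 244 RPKM in KO against 310 and 493 in WT clones, a log2 difference of -0.95 (95% interval -1.75 to -0.14). HSPA1A had 12.7 and 5.74 against 4.54 and 3.42 RPKM, a difference of 0.96 (-0.01 to 1.92). These values rest on about 6 and 13 reads in KO and 18 and 5 in WT clones. CCT4 differed by 0.39 and BAG3 by 0.47. Both KO clones were below both WT clones for HSPB1 and above them for HSPA1A, CCT4 and BAG3. XBP1 was called higher in KO clones (1.08, adjusted p = 0.0318) only when KO clone 69 was left out, which rests on the shallow clone 66 alone. That fit called 882 genes in all, 250 higher and 632 lower, against 0 with both clones.

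**Figure D4:**
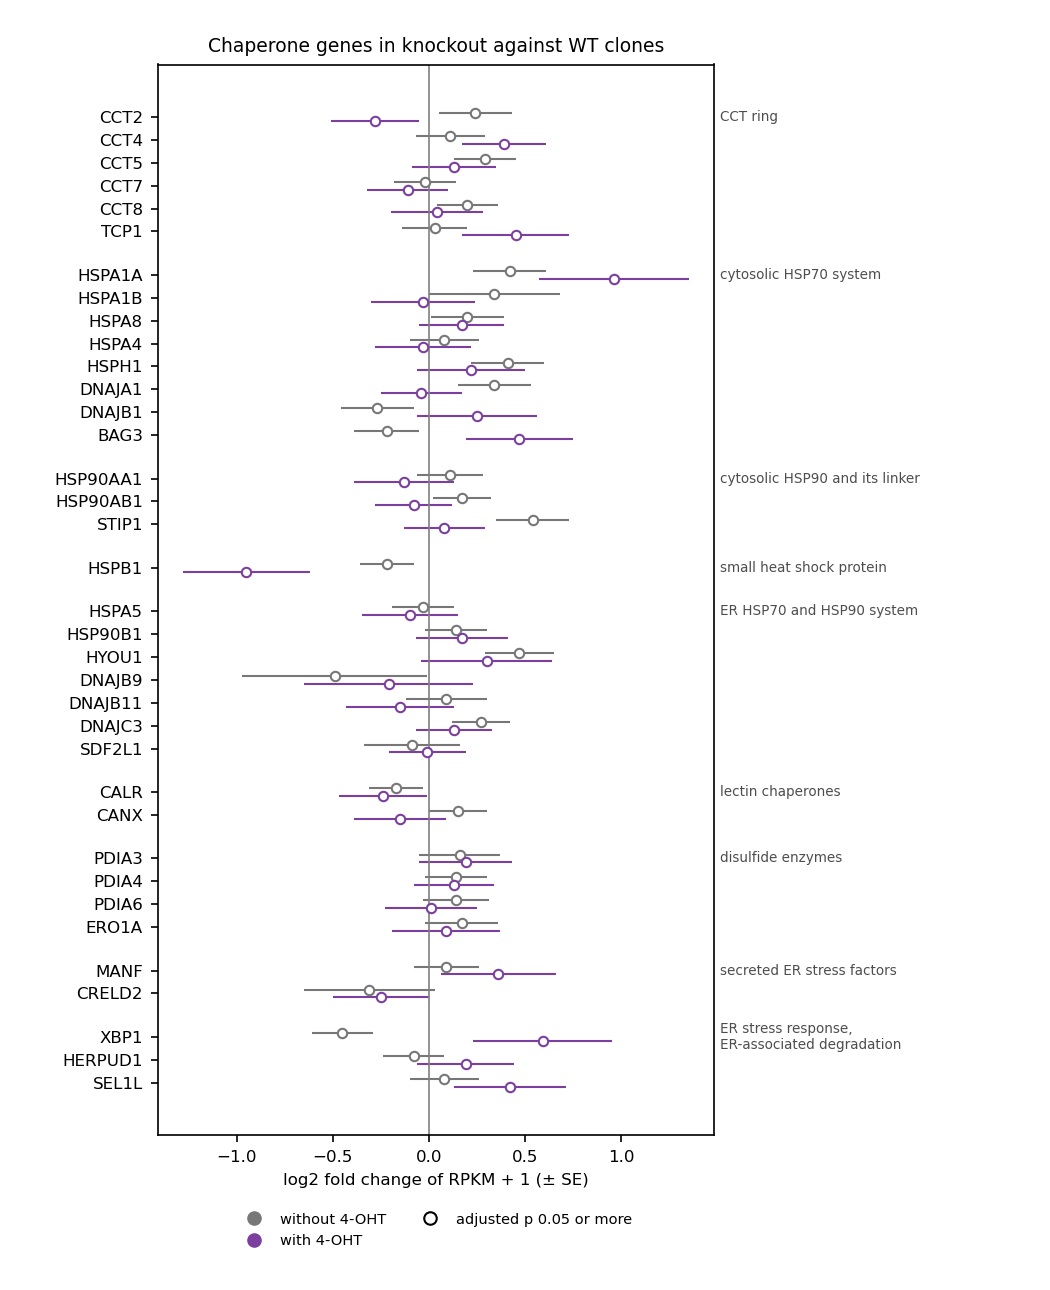
Log2 fold change of RPKM + 1 in SNORA13 knockout against WT clones for the 36 tested genes, without 4-OHT (grey) and with 4-OHT (purple), with SE as bars. All points are open, since no adjusted p was under 0.05. HSPB1 with 4-OHT lies farthest to the left, at -0.95, and HSPA1A with 4-OHT farthest to the right, at 0.96.

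The change with 4-OHT was not shown to differ between genotypes for any of the 36 genes. The background of the interaction test was 0% of 8699 genes, with 453 genes at an unadjusted p under 0.05, 1 of them in the set, and 4 genes called by limma-voom, 0 of them in the set. That gene was XBP1, with an interaction of 1.04 ± 0.43 (95% interval 0.02 to 2.05, adjusted p = 0.855). BAG3 (0.68, -0.05 to 1.42), HSPB1 (-0.72, -1.62 to 0.18) and CCT2 (-0.52, -1.18 to 0.13) came next, at the same adjusted p. BAG3 had 6.72 and 7.32 RPKM in untreated WT clones and 5.83 and 7.25 in treated ones, and 5.83 and 5.97 against 11.3 and 7.74 in KO clones. The genes that passed the test in the same direction in both genotypes were SDF2L1, MANF, PDIA4, CCT2, CCT4, CCT5, CCT7, TCP1 and STIP1, which rose, and HSPA1B, which fell.

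Further folding genes were taken from 5 lists chosen by function. Their counts stand beside 13.6% rising and 8.14% falling of all tested genes in WT clones, and 17.3% and 10.7% in KO clones. Of 31 tested cytosolic chaperones and co-chaperones outside the set, 7 rose and 2 fell in WT and 12 rose and 4 fell in KO clones, with medians of 0.30 and 0.55. HSBP1, which binds heat shock factor, rose by 1.67 ± 0.25 in both, and FKBP4, an immunophilin of HSP90, by 1.39 ± 0.21 and 1.54 ± 0.21. HSPA2, a testis-enriched HSP70, fell, with log2 fold changes of -2.07 ± 0.19 and -2.24 ± 0.19, from 45.1 to 55.4 RPKM without to 9.42 to 11.9 with 4-OHT. Of 10 mitochondrial chaperones and proteases, 3 rose in WT and 4 in KO clones and none fell, among them HTRA2 (1.97 ± 0.23 and 1.85 ± 0.23), GRPEL1 (1.64 ± 0.18 and 1.55 ± 0.18) and CLPP (1.64 ± 0.32 and 1.46 ± 0.32).

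Of 26 other ER folding factors, 1 rose and 4 fell in WT clones and 0 rose and 4 fell in KO clones, with medians of -0.11 and -0.12. Over all tested genes 13.6% rose and 8.14% fell in WT clones, and 17.3% and 10.7% in KO clones. SERPINH1 (HSP47), the collagen chaperone, went from 141 to 166 RPKM without 4-OHT to 17.1 to 38.2 with it, a fall with log2 fold changes of -1.99 ± 0.27 (adjusted p = 0.00256) in WT and -2.70 ± 0.27 (adjusted p = 7.49e-04) in KO clones. GANAB, a glucosidase of the calnexin cycle, and FKBP10, a prolyl isomerase for collagen, fell too, GANAB with log2 fold changes of -1.08 ± 0.16 and -0.73 ± 0.16 and FKBP10 with -0.77 ± 0.18 and -1.03 ± 0.18. These falls stand beside the lower share of fibroblast markers, which include collagen genes, and their link was not tested.

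Of 14 sensors and mediators of the unfolded protein response, 1 rose and 2 fell in WT and 3 rose and 2 fell in KO clones. Over all tested genes 13.6% rose and 8.14% fell in WT clones, and 17.3% and 10.7% in KO clones. The counts of these 14 genes and of the 20 below are small, and no difference from those shares was tested. CHAC1, a glutathione-degrading target of the ATF4 branch, had 6.20 to 13.5 RPKM without and 123 to 198 with 4-OHT, and rose by 3.81 ± 0.40 (adjusted p = 0.00111) and 3.95 ± 0.40 (adjusted p = 8.63e-04). CREB3L1, an ER-bound transcription factor of collagen-secreting cells, fell, at -1.62 ± 0.19 and -1.49 ± 0.19. Of 20 ER-associated degradation genes, 1 rose and 1 fell in WT and 2 rose and 3 fell in KO clones. OS9, a lectin of that pathway, fell in both, at -1.02 ± 0.19 and -1.09 ± 0.19.

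Gene span went along with the change over all genes. Across 8699 tested genes, Spearman's rho of span with log2 fold change was -0.281 in WT and -0.216 in KO clones, so longer genes lay lower with 4-OHT (genes are not independent replicates). Within the 18 cytosolic genes rho was 0.319 and 0.387, and within the 18 ER genes -0.418 and -0.556. The median span was 16907 bases for cytosolic and 14046 for ER genes, against 34308 for all. SDF2L1 spans 1998 bases and MANF 4107, while SEL1L spans 62307 and CANX 52986. The part of span in these results was not tested.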

How the data were processed

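Ribosome-protected fragments of 8 libraries were deposited by the authors as 2 tables, without and with 4-OHT, with no unit stated. The deposited values behave as RPKM over the whole gene span, since value times span summed to nearly 1 constant in every library (1.0036 to 1.0163, in units of a full library). Reads were aligned with STAR to GRCh38, per the submitters' processing notes. The sources used here do not give the counter, the annotation or the handling of multi-mapping reads. Spans came from RefSeq (GRCh38.p14), found by identifier for 11345 of 11546 and 10884 of 11079 genes. Reads were recovered from the steps between low values, 79.7% to 84.5% of which lay within 0.1 of a whole number, so reads of single genes are approximate.

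Genes with at least 10 reads in at least 2 libraries were tested with limma-trend 3.58.1 (R 4.3.3) on log2(RPKM + 1), which understates changes of low genes. The 4-OHT and interaction contrasts used all 8 libraries (4 residual degrees of freedom), and knockout against WT the 4 of a table (2). P-values were adjusted by Benjamini-Hochberg over all tested genes. An exact permutation test of 2 against 2 libraries cannot go below p = 0.333, so none was run. Scripts were checked on simulated data. Clones were the same without and with 4-OHT, per the labels, which pairs the libraries. Deviations of the same clone from its group means correlated at 0.139 (WT) and 0.001 (KO) over 8630 genes. Alternatives were a pseudocount of 0.1, no filter, 30 reads, median-ratio scaling, log2(CPM + 1), limma-voom, other library sets, each library left out and the clone as a block. Full values are given for called genes, for the 4 smallest p-values where none was called, and for further genes chosen after their values were seen (HSPA5, HSP90B1, CALR, HSPA8, HSP90AB1, DNAJB9, XBP1, ERO1A, DNAJB11, BAG3, HERPUD1, DNAJA1, CCT6A). From each other list up to 4 called genes with the largest change could be named. The members and lists were chosen with earlier results of these data known. No per-sample column was left unused. Reads per coding base were not used here.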

Additional observations from a re-analysis of the deposited data

Results flagged for a closer look

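For BAG3 and DNAJB11 the ratios of RPKM with to without 4-OHT lay on opposite sides of 1 in the genotypes, in every clone of each, but neither gene was called in either genotype. For BAG3 the ratio of mean RPKM was 0.93 in WT clones (0.87 and 0.99 in clones 15 and 54) and 1.61 in KO clones (1.94 and 1.30 in clones 66 and 69). For DNAJB11 it was 1.20 in WT clones (1.28 and 1.10) and 0.98 in KO clones (0.98 and 0.99). The interaction test did not pass for either gene, with a difference in log2 fold change of 0.68 (adjusted p = 0.855, limma-trend) for BAG3 and -0.24 (adjusted p = 0.915) for DNAJB11. The sign for DNAJB11 turned under median-ratio scaling in WT clones (-0.02) and in limma-voom in KO clones (0.09).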

How the results depend on the processing

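Of the calls with 4-OHT, those of SDF2L1, MANF, PDIA4, CCT4 and CCT5 in both genotypes, of CCT2 and STIP1 in WT clones and of TCP1 in KO clones held under all 16 alternatives. The number called in WT clones, 13 in the main test, was 11 to 16 under the other settings and 7 to 15 with each library left out, at 8 without WT clone 15 untreated, 7 without WT clone 54 untreated and 7 without WT clone 15 treated, where all genes called fell from 1890 to 867, 808 and 1068. In KO clones, 12 in the main test, it was 8 to 16 and 7 to 14, at 7 without KO clone 66 or KO clone 69 untreated, where all genes called fell from 2433 to 1101 and 1516. For KO against WT with 4-OHT, leaving out each library gave 0 to 1, the 1 without KO clone 69, with 882 of all genes called. Added after seeing the data, median-ratio scaling moved the mean ratio of summed footprints with to without 4-OHT from 1.45 to 1.17 for the cytosolic genes, from 0.99 to 0.80 for the ER genes and from 2.25 to 1.81 for the CCT subunits. Single libraries ended calls in WT clones as follows. Without WT clone 15 untreated, clone 54 untreated or clone 15 treated, CCT7 (adjusted p = 0.0605, 0.0948 and 0.0764), CCT8 (0.105, 0.147 and 0.140), HSP90AA1 (0.0986, 0.175 and 0.157), TCP1 (0.152, 0.182 and 0.190) and SEL1L (0.147, 0.134 and 0.0517) were lost. Without WT clone 54 treated, SEL1L (0.173), TCP1 (0.0916) and HSPA1B (0.147) were lost, and HSPA1B also without clone 54 untreated (0.221) or clone 15 treated (0.157). Leaving out untreated KO clone 66 or 69 ended HSP90AA1 (0.0529 and 0.0518), TCP1 (0.0636 and 0.0622) and HSPA1B (0.0624 and 0.0606). In KO clones, without untreated clone 66 or 69, CCT2 (0.0869 and 0.132), CCT7 (0.0750 and 0.0732), CANX (0.101 and 0.0832) and HSPB1 (0.121 and 0.136) were lost, with HSPA1B without 66 (0.0873) and STIP1 without 69 (0.0566). Without treated clone 66, CCT7 (0.0598), CANX (0.0842), HSPB1 (0.161) and HSPA1B (0.0529) were lost, and CCT2 without treated clone 69 (0.0831). Each WT library left out ended CCT2 (0.0509 to 0.0533), and each untreated one HSPB1 (0.0671 and 0.0688). With the clone as a replicate block the numbers were 13 in WT and 12 in KO clones: HSPA1B in WT (0.0580) and CCT2 in KO clones (0.0619) lost their calls, DNAJB9 gained them, and no other member's call changed. The median of all genes was 0.06 in WT and 0.05 in KO clones, 0.22 in both with limma-voom, and -0.02 and -0.04 with median-ratio scaling. Signs turned for uncalled genes. With median-ratio scaling these were HSP90AB1 (-0.09), HSPA5 (-0.17), HSPA8 (-0.02) and DNAJB11 (-0.02) in WT and HSPA5 (-0.31), HSPA8 (-0.12), PDIA6 (-0.05) and XBP1 (-0.07) in KO clones. With limma-voom they were HSPA5 (-0.04) and DNAJB11 (0.09) in KO clones. With each library left out the ranges were -0.22 to 0.05 for CALR, -0.34 to 0.11 for HSP90B1, -0.02 to 0.23 for HSPA5 and -0.57 to 0.10 for HSPB1 in WT clones, where BAG3 reached 0.04. In KO clones they were -0.14 to 0.01 for HSP90AB1, -0.18 to 0.01 for HSP90B1 and -0.16 to 0.23 for HSPA5, while DNAJB11 reached 0.19 and XBP1 -0.23 and 0.75. The cause of these turns was not tested. Depth limits low genes most, with KO clone 66 with 4-OHT at 188826 reads.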
